A study of Mus musculus with 9 samples.

Results

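The nuclear pore and transport receptor genes described here are those whose gene symbol starts with Nup, Kpna, Kpnb, Ipo or Xpo followed by a digit, together with Cse1l. By this rule, applied to probe sets annotated with a single symbol, 39 of the 18193 genes named on the array were chosen, each of which is represented by its brightest probe set on the log2 scale. The rule reads names only and no measured value, but it was set with earlier results of these data known. The choice of probe set used the mean log2 intensity over the 9 arrays. Of the 39 genes, 19 encode nucleoporins, the proteins of the pore, and 20 encode the importins and exportins that carry cargo through it. After a filter on dim probe sets 38 of the 39 were tested among 12652 genes; the importin alpha gene Kpna7, whose intensity lay between 8.5 and 12.5 in the 9 arrays, was not tested.

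The nuclear pore complex is a ring-shaped gate in the nuclear envelope, built from a scaffold of outer and inner rings, a channel lined with flexible repeat proteins, cytoplasmic filaments and a nuclear basket. Importin alpha reads the nuclear localisation signal of a protein and importin beta takes the pair through the channel, while exportins carry proteins and RNA out, and the small GTPase Ran loads and unloads both kinds of receptor. Dividing cells build new pores for their daughters, several scaffold proteins also act at chromosomes in mitosis, and the receptors are used throughout blood progenitors as in other tissues.

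RNA of sorted CD45.1+ LKS+ bone marrow cells was hybridised to 9 Affymetrix Mouse Genome 430 2.0 arrays, with 3 arrays for leukemic mice at day 14, 3 for leukemic mice at day 7 and 3 for control mice. All mice carried the strain label C57BL/6 and were 8 weeks old; LKS+ cells lack lineage markers and carry Kit and Sca-1, the fraction that holds blood stem cells and early progenitors, and CD45.1 is a surface antigen variant that marks cells of one origin. The series asks how normal stem cells change in acute myeloid leukemia, the labels do not name the leukemia model, and control mice have no day in their labels, so leukemia and elapsed time cannot be told apart. The labels call the replicates biological but do not say that each came from its own animal or sort, so p-values cover the spread among these arrays alone, and the number of arrays limits the precision.

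Values are the authors' deposited normalized intensities, in arbitrary units and comparable between arrays for the same probe set only. Differences are on the log2 scale from limma, with the Benjamini-Hochberg adjusted p over all 12652 genes, and a gene was called when that p was below 0.05. No batch label was given.

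The measured genes of a stem and progenitor list were present throughout, with 9 of 9 above the 40th percentile of their array in all 9 arrays. Their summed intensity was 13000 to 14000 at day 14, 12400 to 12900 at day 7 and 13500 to 14000 in control. Kit was in that list and Sca-1 was not, so the list did not test the identity of the sorted cells. Within that list Gata2 was called higher (0.43) and Cd48 lower (-0.85) at day 14 than in control, and the other 7 of the 9 were not called. For the counts of calls in this paragraph, 34.1% of all tested genes were called lower and 18.3% higher at day 14 than in control. At day 7 2.21% of all were called higher. The summed intensity of 12 cycling-cell genes was 6890 to 7750 at day 14, 15300 to 17000 at day 7 and 10800 to 14100 in control. Of the 12, 12 were called lower at day 14 and 8 higher at day 7 than in control. Megakaryocyte genes summed to 1590 to 1870 at day 14, 753 to 809 at day 7 and 605 to 688 in control, with 5 of 7 called higher at day 14. Neutrophil and monocyte genes summed to 8170 to 10200 at day 14, 6410 to 7910 at day 7 and 5710 to 7220 in control, with 4 higher and 2 lower of 9 at day 14. Erythroid genes summed to 3240 to 4050 at day 14, 3820 to 4140 at day 7 and 3820 to 4870 in control, with 0 of 4 called by limma at day 14 (1 with an unadjusted p below 0.05) and Hba-a1 above the 40th percentile in no array. That sum was mostly Car2, with means of 3553 at day 14, 3720 at day 7 and 3914 in control. Control replicate 1 stood apart, with Klf1 at 155 (36.1 and 44.8 in replicates 2 and 3) and Car1 at 672 (87.0 and 73.9). B cell genes summed to 329 to 426 at day 14, 297 to 362 at day 7 and 246 to 260 in control, with 4 higher and 1 lower of 6 at day 14. T and NK cell genes summed to 774 to 822 at day 14, 963 to 995 at day 7 and 755 to 870 in control, with 3 higher and 1 lower of 4 at day 14, and Cd3d and Cd3g lay above the 40th percentile in no array. The gene called lower, Nkg7, made up most of that sum, with means of 527 at day 14, 819 at day 7 and 742 in control. Cd28 (2.38), Bcl11b (1.59) and Cd3e (0.45) were the 3 called higher. In bulk RNA fewer cells of a type and less RNA per cell cannot be told apart, and the part of these shifts in the results below was not tested.

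At day 14 most pore and transport receptor genes were lower than in control. Of 38 tested, 27 were called lower, against 34.1% of all tested genes, and 3 were called higher, against 18.3% of all. The 3 higher genes were the importin alpha genes Kpna1 and Kpna4 and the basket nucleoporin gene Nup153. The median log2 difference was -0.34 over the 38 genes and -0.06 over all tested genes, and the range ran from -1.12 for Nup93 to 0.75 for Kpna1. The 3 arrays of day 14 and the 3 of control did not overlap for 34 of the 38 genes, against 58.1% of all genes.

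Against day 7, too, most of these genes were lower at day 14. Of the 38 genes, 30 were called lower at day 14 than at day 7, where 33.6% of all tested genes were, and 3 were called higher, where 17.4% of all were. The 3 higher genes were again Kpna1, Kpna4 and Nup153. Arrays of the 2 days did not overlap for 33 of 38 genes, with 60.3% of all genes as background, and the median difference was -0.39 against -0.06 over all genes. Day 14 stands in both comparisons, so they are not independent of each other. The nucleoporin genes Nup54, Nup160 and Nup210 and the exportin gene Xpo4 were called lower against day 7 but not against control, and Ipo4, which encodes an importin for histones and ribosomal proteins, was called against control but not against day 7. Nup54 lost its call against day 7 in 10 alternatives, with values of -0.15 to -0.18 without control replicate 1, day 7 replicate 1, day 7 replicate 3 or any day 14 replicate. At a common 75th percentile Nup160 (-0.15, adjusted p 0.114) and Nup210 (-0.12, adjusted p 0.132) lost theirs, and with averaged probe sets Xpo4 did (-0.0128, adjusted p 0.908). Nup160 was also called lower against control in 7 alternatives, so which comparison called these genes was not firm.

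At day 7, 0 of the 38 genes were called against control with limma, where 3.34% of all tested genes were called. Without adjustment 4 of the 38 had a p below 0.05, against 19.8% of all tested genes, and the arrays did not overlap for 4 genes, against 26.5%. The difference was above 0 for 29 genes and below 0 for 9, with a median of 0.06 over the 38 genes and 0.01 over all genes. The count of calls at day 7 was not firm, since it was 3 without control replicate 2 (4.39% of all genes called in that fit), 7 with array weights (17.2% of all genes, about the same share) and 0 or 1 in the other alternatives. An F-test over the 3 groups called 33 of the 38 genes, against 54.8% of all tested genes.

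**Figure D1:**
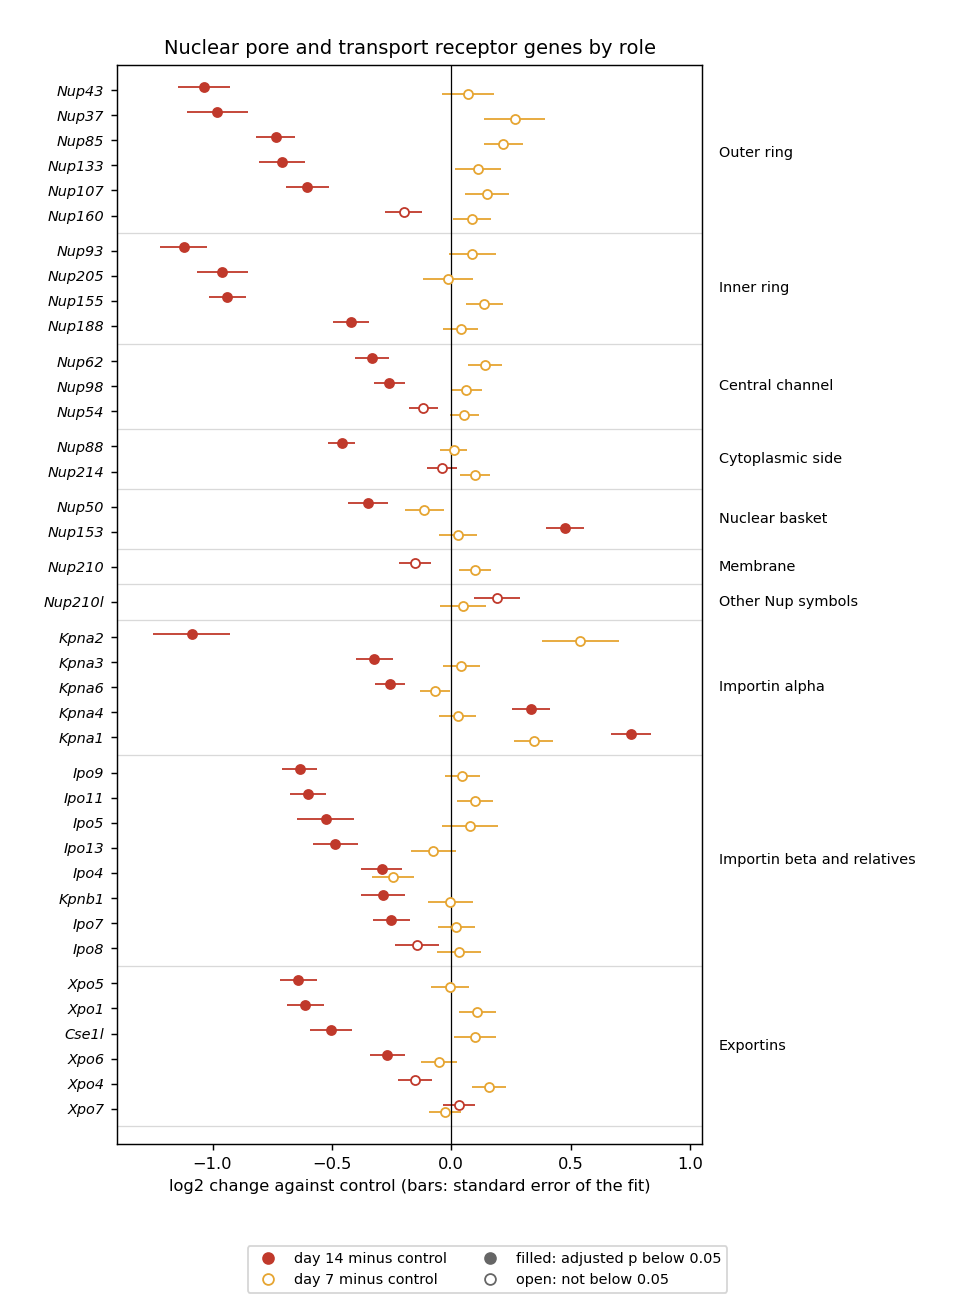
Log2 difference from control for each of the 38 tested genes, day 14 in red and day 7 in yellow, grouped by role, with bars for the standard error of the fit and filled points for an adjusted p below 0.05. Red points lie left of 0 for 33 of 38 genes and run from -1.12 to 0.75, and 0 of the yellow points are filled.

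Kpna2 had the widest span over the 3 groups. It encodes importin alpha 1, the adaptor that is abundant in dividing cells and links cargo with a classical localisation signal to importin beta. Its intensity was 239, 288 and 308 at day 14, against 971, 861 and 749.5 at day 7 and 483, 754 and 559 in control. The day 14 arrays lay below all others, and control replicate 2 lay just above the lowest day 7 array. The log2 difference was -1.09 (SE 0.16, adjusted p 0.000386) for day 14 against control and -1.63 (SE 0.16, adjusted p 3.69e-05) for day 14 against day 7, a level 3.09-fold lower at day 14. For day 7 against control it was 0.54 (SE 0.16, adjusted p 0.0974) and was not called, but it was 0.72 (adjusted p 0.024) without control replicate 2 and 0.72 (adjusted p 0.00367) with array weights.

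Kpna1 and Kpna4 went the other way. Kpna1, which encodes importin alpha 5, had an intensity of 437, 415 and 481 at day 14, against 361, 333.5 and 310.1 at day 7 and 252, 283 and 256 in control. The 3 groups were stacked without overlap, with day 14 highest and control lowest. The log2 difference was 0.75 (SE 0.08, adjusted p 7.08e-05) for day 14 against control, 0.41 (adjusted p 0.00218) for day 14 against day 7 and 0.35 (adjusted p 0.0514) for day 7 against control. Kpna1 at day 7 therefore lay close to the threshold, and 7 of the alternatives called it, among them the fit without control replicate 2 (0.40, adjusted p 0.0396). All 5 probe sets of Kpna1 were called higher at day 14 than in control, by 0.29 to 0.91.

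Kpna4, which encodes importin alpha 3, had an intensity of 636, 767 and 668 at day 14, against 558, 572 and 539 at day 7 and 551, 572 and 516 in control. Every day 14 array lay above every other array, and the day 7 and control arrays were mixed. The log2 difference was 0.33 (SE 0.08, adjusted p 0.0053) against control and 0.31 (adjusted p 0.00798) against day 7. The second, dimmer probe set of Kpna4 went the opposite way, with 43.2, 58.6 and 67.6 at day 14, 76.5, 62.5 and 94.7 at day 7 and 87.5, 80.2 and 99.3 in control. In a fit of every probe set that probe set was called lower at day 14 than in control (-0.67, adjusted p 0.0138), so the direction of Kpna4 depended on the probe set. The other tested importin alphas, Kpna3 and Kpna6, were called lower at day 14 than in control, by -0.32 and -0.26, and Kpna6 lost that call with either other scaling of the arrays.

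**Figure D2:**
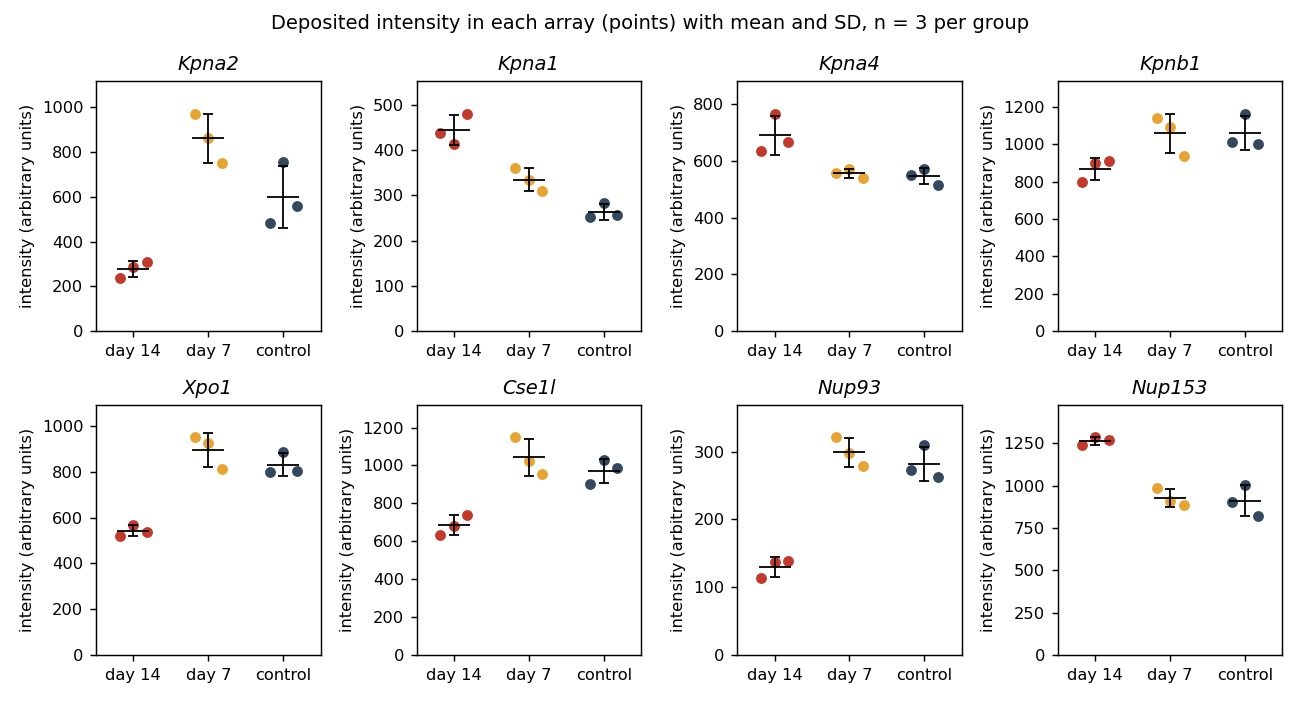
Deposited intensity of 8 genes in each array, in arbitrary units on a linear axis from 0, with the mean and SD of 3 arrays for day 14, day 7 and control. Kpna2 at day 14 lies at 239 to 308, below all other arrays, while Kpna1, Kpna4 and Nup153 at day 14 lie above all other arrays.

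The promoters of 4 of these genes are shown as examples, and the CACGTG, GCATGCGC and E2F matches described below are not among them. Kpna2 and Nup37, both lower at day 14, hold the same pair of motifs, and Nup205, also lower, holds none. Nup98 (-0.26 from control) and the untested Kpna7, not shown, hold that pair too. Kpna4, whose direction depended on the probe set, holds a motif that Kpna2 has too. Each line gives the 250 bases before the annotated start on the gene's own strand, from RefSeq in build GRCm38.p6, and capitals mark the motif matches. Kpna2 is at chr11:106999526-106999775 on the minus strand, Nup37 (the first of its 2 windows) at chr10:88146742-88146991 on the plus strand, Nup205 at chr6:35177366-35177615 on the plus strand and Kpna4 at chr3:69127093-69127342 on the minus strand.
Kpna2: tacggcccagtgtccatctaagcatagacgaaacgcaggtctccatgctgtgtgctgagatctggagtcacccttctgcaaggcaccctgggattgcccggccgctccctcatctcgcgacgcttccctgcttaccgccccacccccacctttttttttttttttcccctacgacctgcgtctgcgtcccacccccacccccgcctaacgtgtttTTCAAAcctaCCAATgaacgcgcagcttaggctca
Nup37: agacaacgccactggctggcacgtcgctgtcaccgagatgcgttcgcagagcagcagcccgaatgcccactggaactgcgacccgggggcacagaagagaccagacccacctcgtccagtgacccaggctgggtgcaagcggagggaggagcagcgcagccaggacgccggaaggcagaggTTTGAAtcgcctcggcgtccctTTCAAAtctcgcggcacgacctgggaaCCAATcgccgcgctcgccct
Nup205: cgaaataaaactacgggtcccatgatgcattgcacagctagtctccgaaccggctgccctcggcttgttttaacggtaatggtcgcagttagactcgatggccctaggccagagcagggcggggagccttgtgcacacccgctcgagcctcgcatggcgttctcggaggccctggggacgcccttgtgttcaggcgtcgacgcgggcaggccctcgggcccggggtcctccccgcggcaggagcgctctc
Kpna4: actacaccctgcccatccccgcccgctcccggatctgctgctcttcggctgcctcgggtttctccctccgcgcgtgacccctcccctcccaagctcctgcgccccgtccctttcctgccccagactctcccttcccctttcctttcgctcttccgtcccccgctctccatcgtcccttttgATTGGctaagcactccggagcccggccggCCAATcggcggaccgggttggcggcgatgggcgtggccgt
In Kpna2 the capitals are a TTTGAA match, read on the other strand, followed by CCAAT, and in Nup37 they are TTTGAA on each strand in turn, then CCAAT. In Kpna4 they are 2 CCAAT matches, the first on the other strand.

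The 6 strings of letters known as binding sequences were searched on both strands of 300 bases, 250 before and 50 after the start, for the 30 members with a promoter window; no string searched contains another. CCAAT, bound by NF-Y, was found in 17 of the 30 genes (56.7%), against 37.4% of all 32851 windows. TTTGAA, a cell cycle element bound by the MuvB complex, was found in 6 of 30, against 17.9% of windows. CACGTG, the E-box of MYC and related factors, was found in 5 of 30, against 7.15%, and GCATGCGC, bound by NRF1, in 4 of 30, against 2.71%. The E2F strings TTTGGCGC and TTTCCCGC were found in 0 and 1 of 30, against 0.514% and 1.07%, and the single match was in Nup210. A gene with several windows counted once, so its chance of a match was higher than that of a single window. Among the 22 members called lower at day 14 with a window, 14 held CCAAT, and among the other 8 members, the untested Kpna7 included, 3 did. These are matches of letters and show no binding.

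The outer ring, or Y complex, is the scaffold that coats the rims of the pore. Of its 6 genes 5 were called lower at day 14 than in control, against 34.1% of all tested genes. All 6 were called lower than at day 7, against 33.6% of all, and the medians were -0.72 and -0.89. Nup43 had an intensity of 38.5, 50.3 and 48.1 at day 14, against 94.03, 98.7 and 99.8 at day 7 and 97.1, 100.8 and 81.9 in control, a log2 difference of -1.03 from control (SE 0.11, adjusted p 5.58e-05). Nup37 measured 139, 157 and 169 at day 14, against 367, 375 and 357 at day 7 and 285, 381 and 261 in control, a difference of -0.98 (SE 0.13, adjusted p 0.000177). Both genes encode small propeller proteins on the arms of the Y, and in both every day 14 array lay below every other array.

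Nup85, on a short arm of the Y, had an intensity of 360, 381.5 and 391.5 at day 14, against 805, 706 and 689 at day 7 and 618, 687 and 585 in control. The log2 difference was -0.74 from control (SE 0.08, adjusted p 8.24e-05) and -0.95 from day 7 (adjusted p 2.34e-05), and the 3 day 7 arrays also lay above the 3 control arrays (0.22, adjusted p 0.178, not called). Nup133, which sits at the stem's end, measured 180, 198 and 179.8 at day 14, against 383, 299 and 308 at day 7 and 293, 325 and 293 in control. The difference for Nup133 was -0.71 from control (SE 0.10, adjusted p 0.000252) and -0.82 from day 7. Nup107, its partner in the stem, was at -0.60 from control, and Nup160, on the other arm, was at -0.20 from control (adjusted p 0.0538), just short of the threshold. The call for Nup160 was gained in 7 alternatives, among them without control replicate 3 (-0.26, adjusted p 0.0231) and without day 14 replicate 2 (-0.25, adjusted p 0.0385).

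The inner ring, which anchors the channel proteins to the scaffold, held the lowest median of the roles with more than 1 gene. All 4 of its genes were called lower at day 14 than in control and than at day 7, with medians of -0.95 and -1.01. The shares of all tested genes called lower were 34.1% and 33.6%. Nup93, which recruits the channel proteins, had an intensity of 113, 137.5 and 139 at day 14, against 321, 298 and 279 at day 7 and 273, 310.2 and 262 in control. Its log2 difference from control was -1.12 (SE 0.10, adjusted p 2.17e-05), a level 2.17-fold lower at day 14 and the most negative among the 38 genes. Nup205 measured 345, 445 and 423 at day 14, against 829.9, 803 and 695 at day 7 and 738, 843 and 766 in control.

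Nup155, which contacts the membrane, had an intensity of 105, 110.2 and 114 at day 14, against 244, 233 and 217 at day 7 and 193, 224 and 215 in control. The log2 difference from control was -0.96 for Nup205 (SE 0.11, adjusted p 7.39e-05) and -0.94 for Nup155 (SE 0.08, adjusted p 1.36e-05). Both genes thus lay in day 14 arrays well under the range of the other 6 arrays, and neither separated day 7 from control. Nup188, a large scaffold protein related to Nup205, was at -0.42 from control. Its 3 values were 119, 115 and 107 at day 14, 172, 147 and 150.3 at day 7 and 150, 156 and 149 in control.

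Genes of the channel and of the cytoplasmic side had medians of -0.26 and -0.25 at day 14 against control. Of the 3 channel genes, whose proteins carry the phenylalanine-glycine repeats of the permeability barrier, Nup62 (-0.33) and Nup98 (-0.26) were called lower at day 14 than in control, and Nup54 (-0.12, adjusted p 0.13) was not. Nup98 lost its call at a common 75th percentile (-0.14, adjusted p 0.0806). Nup62 had an intensity of 1968, 2040 and 2147 at day 14, against 2914, 2926 and 2721 at day 7 and 2441, 2810 and 2515 in control. On the cytoplasmic side Nup88 was called lower (-0.46), with 350, 346 and 348 at day 14, 496.5, 479.7 and 468.5 at day 7 and 462, 487 and 487 in control. Its partner Nup214, which docks export complexes, was at -0.04 (adjusted p 0.63), with 298.5, 294 and 298 at day 14, 348, 322 and 311 at day 7 and 303, 318 and 294 in control. The membrane nucleoporin gene Nup210 was at -0.15 from control (adjusted p 0.0806) and -0.25 from day 7 (adjusted p 0.0097), and Nup210l, known mainly from testis, was at 0.19 from control (adjusted p 0.119).

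The 2 nuclear basket genes split. Nup153, which tethers the basket to the ring, had an intensity of 1238, 1286 and 1268 at day 14, against 989, 909 and 886 at day 7 and 907, 1004 and 823 in control. Every day 14 array lay above every other array, and the log2 difference was 0.48 (SE 0.08, adjusted p 0.000754) from control and 0.45 (adjusted p 0.000998) from day 7. A second probe set of Nup153 measured 131, 145.5 and 120.5 at day 14, 210, 206 and 182 at day 7 and 172, 230.1 and 182 in control. That probe set was called lower in the fit of every probe set (-0.55, adjusted p 0.00485), so the direction of Nup153 depended on the probe set. Nup50, a mobile basket protein that helps release importin cargo, was called lower through the probe set used (-0.35), while another of its probe sets was called higher (0.59, adjusted p 0.000345), with 169, 193 and 194 at day 14, 178, 171 and 181 at day 7 and 125, 129 and 114 in control.

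Importin beta and its relatives bind cargo or importin alpha and contact the channel repeats. Of 8 such genes 7 were called lower at day 14 than in control, with a median of -0.39, and 6 lower than at day 7. The shares of all tested genes called lower were 34.1% and 33.6%. Kpnb1, which encodes importin beta 1, had an intensity of 799.7, 897 and 907 at day 14, against 1138, 1093 and 939 at day 7 and 1013, 1163 and 1000 in control. The day 14 arrays lay below the others, with day 7 replicate 3 nearest. The log2 difference of Kpnb1 was -0.29 from control (SE 0.09, adjusted p 0.0257) and -0.28 from day 7 (adjusted p 0.0273). The call against control was lost without control replicate 2 (-0.22, adjusted p 0.0911) and without day 14 replicate 1 (-0.23, adjusted p 0.0898); it was -0.16 (adjusted p 0.128) at a common 75th percentile and -0.0418 (adjusted p 0.728) with averaged probe sets. The call against day 7 was lost without day 7 replicate 1 (-0.23, adjusted p 0.103), day 7 replicate 2 (-0.25, adjusted p 0.0866) or day 14 replicate 1 (-0.22, adjusted p 0.097). In the fit of every probe set, none of the other probe sets of Kpnb1 was called at day 14 against control. The brightest of these measured 447, 612 and 368 at day 14 and 300, 415 and 378 in control (0.37, adjusted p 0.11). One dim probe set of Kpnb1 measured 27.6, 29.4 and 33.2 at day 14, 62.3, 53.9 and 61.3 at day 7 and 26.1, 35.5 and 30.2 in control. It was called higher at day 7 (0.96, adjusted p 0.00848) when every probe set was fitted.

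Among the other importin beta relatives, Ipo9 (-0.63), Ipo11 (-0.60), Ipo5 (-0.53) and Ipo13 (-0.49) were called lower at day 14 than in control. Ipo9 carries histones and actin, and its intensity was 210.3, 228 and 241 at day 14, against 381, 365.5 and 342 at day 7 and 342, 371 and 342 in control. Ipo5, which carries histones and ribosomal proteins, measured 491, 635 and 579 at day 14, against 882, 887 and 811 at day 7 and 779.5, 959 and 721 in control. In both genes the day 14 arrays lay below all others. Ipo4 (-0.29) and Ipo7 (-0.25) were called lower too, but both lost the call without control replicate 2 (-0.23, adjusted p 0.0607, and -0.20, adjusted p 0.0706) and without day 14 replicate 1 (-0.25, adjusted p 0.0588, and -0.19, adjusted p 0.0696). Ipo8, close in sequence to Ipo7, was at -0.14 (adjusted p 0.215) and was not called, but with averaged probe sets it was called lower (-0.32, adjusted p 0.00647), and 1 of its other probe sets was at -0.89 (adjusted p 0.00174).

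Among the 6 exportin genes 4 were called lower at day 14 than in control, against 34.1% of all tested genes. Lower than at day 7 were 5, against 33.6% of all. Xpo1, which encodes the main exporter of proteins with a leucine-rich signal, had an intensity of 522, 568.5 and 539.9 at day 14, against 952, 927 and 814 at day 7 and 799, 889 and 806 in control. The log2 difference was -0.61 from control (SE 0.08, adjusted p 0.000156) and -0.72 from day 7 (adjusted p 5.27e-05), and all 3 probe sets of Xpo1 were called lower in both comparisons. Cse1l, which returns importin alpha to the cytoplasm, measured 635, 680.5 and 741 at day 14, against 1148, 1025 and 956 at day 7 and 901, 1029 and 984 in control. For Cse1l the difference was -0.50 from control (SE 0.09, adjusted p 0.00101) and -0.60 from day 7 (adjusted p 0.000299). In both genes every day 14 array lay below the other 6, and day 7 and control overlapped.

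Xpo5, the exporter of microRNA precursors, was at -0.64 from control, with 128, 136 and 143 at day 14, 217, 216.5 and 198 at day 7 and 192, 229 and 215 in control. Xpo6, the exporter of actin, was at -0.27 from control and lost that call with either other scaling of the arrays. Xpo4 (-0.15, adjusted p 0.0954) and Xpo7 (0.03, adjusted p 0.692) were not called against control. A dimmer probe set of Xpo4 was called higher at day 14 than in control when every probe set was fitted (0.41, adjusted p 0.00316). The direction of Xpo4 therefore depended on the probe set. Xpo7, long studied in erythroid maturation, had 1075, 1071 and 1033 at day 14, 1061, 1021 and 967 at day 7 and 972, 1103 and 1035 in control, with all 3 groups overlapping.

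A gene's probe sets did not always move together. The 39 genes had 99 probe sets, of which 88 were tested, and 27 genes had at least 2 tested. Fitted on their own among 27665 probe sets, 47 of the 88 were called lower at day 14 than in control, where 27.5% of all probe sets were, and 11 higher, where 17.0% of all were. At day 7 the count was 5 higher, where 1.90% of all probe sets were, and 0 lower, with 2 of the 5 in Kpna1 and 1 each in Kpnb1, Nup50 and Xpo4. Of the 50 tested probe sets not used for their gene, 36 had the same sign at day 14 against control as the one used and 14 the opposite. Among them 4 were called opposite to the called probe set used for the same gene, in Kpna4, Nup50, Nup133 and Nup153. For Nup54, whose used probe set was not called, 1 other probe set was called lower (-0.49, adjusted p 0.0237) and 1 higher (0.20, adjusted p 0.0404). When a gene's probe sets were averaged, Kpna1 alone of the 3 higher genes was called higher, with Kpna4 at -0.17 and Nup153 at -0.0507. The position of each probe set within the transcript was not used here. The probe set used carried a suffix for probes that can bind other transcripts in 6 genes (Nup43, Nup54, Nup62, Nup107, Ipo9 and Kpna1).

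**Figure D3:**
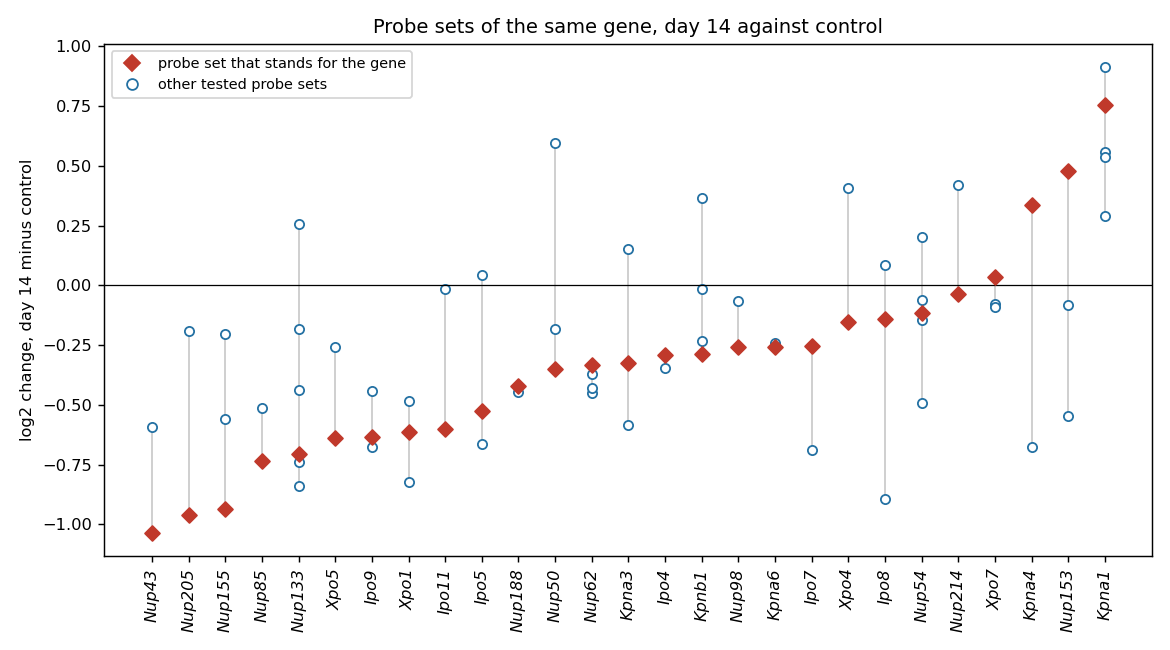
Log2 difference of day 14 against control for each tested probe set of the 27 genes with at least 2, with a diamond for the probe set that stands for the gene and open circles for the others. For Kpna1 all 5 probe sets lie above 0, while for Kpna4 and Nup153 the diamond lies above 0 and the other probe sets below it.

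The other genes of the transport pathway moved in the same direction in part. Of 36 such genes listed for their role, 32 were measured and tested. At day 14 against control 1 was called higher and 16 lower, against 18.3% and 34.1% of all tested genes. The median was -0.22, against -0.06 over all tested genes. Nxt1 (-0.85), a cofactor of mRNA export, Aaas (-0.84), a pore protein, Rcc1 (-0.69), which loads Ran with GTP on chromatin, and Ranbp1 (-0.59), a Ran cofactor in the cytoplasm, had the most negative differences among those called. Ran itself, picked with its values in view, differed by -0.42. The pore membrane gene Pom121 was the 1 called higher (0.18), and lost the call without control replicate 3 (0.17, adjusted p 0.0555), day 14 replicate 1 (0.17, adjusted p 0.0543) or day 14 replicate 2 (0.17, adjusted p 0.0551).

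Against day 7 the same list had 18 called lower and 3 called higher at day 14, against 33.6% and 17.4% of all tested genes. The most negative were Aaas (-1.04), Nxt1 (-1.03), Rcc1 (-0.999) and Ndc1 (-0.93), which encodes a pore membrane anchor, and the 3 higher were Ranbp2 (0.31), Pom121 (0.25) and Tnpo1 (0.23). Ranbp2 lost that call without day 7 replicate 2 or 3 (0.31 and 0.24) and without day 14 replicate 2 or 3 (0.22 and 0.33). Tnpo1 lost it without any day 7 replicate (0.25, 0.23 and 0.21 without replicates 1 to 3) and without day 14 replicate 2 (0.17), and was at -0.0525 with averaged probe sets. At day 7 against control 1 of the 32 was called, about the share over all tested genes (3.34%). That gene was Alyref (0.41), an mRNA export adaptor, and it lost its call in 11 alternatives. These include leaving out any 1 array except control replicate 2, with values of 0.30 to 0.42.

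The members' order over the replicates was uneven. Control replicate 2 was the highest of the 3 control arrays for 33 of 38 genes (86.8%), against 37.6% of all tested genes. Among day 7 arrays replicate 1 was highest for 27 (71.1%), against 36.1% of all, and among day 14 arrays replicate 1 was lowest for 25 of 38, against 37.5% of all. The summed intensity of the 12 cycling-cell genes was 6891, 7607 and 7749 in day 14 replicates 1 to 3, 17030, 16180 and 15250 in day 7 replicates 1 to 3 and 11450, 14080 and 10820 in control replicates 1 to 3. The same arrays were thus highest or lowest within their group for both sets of genes; the part of the cycling-cell genes in the members' differences was not tested.

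**Figure D4:**
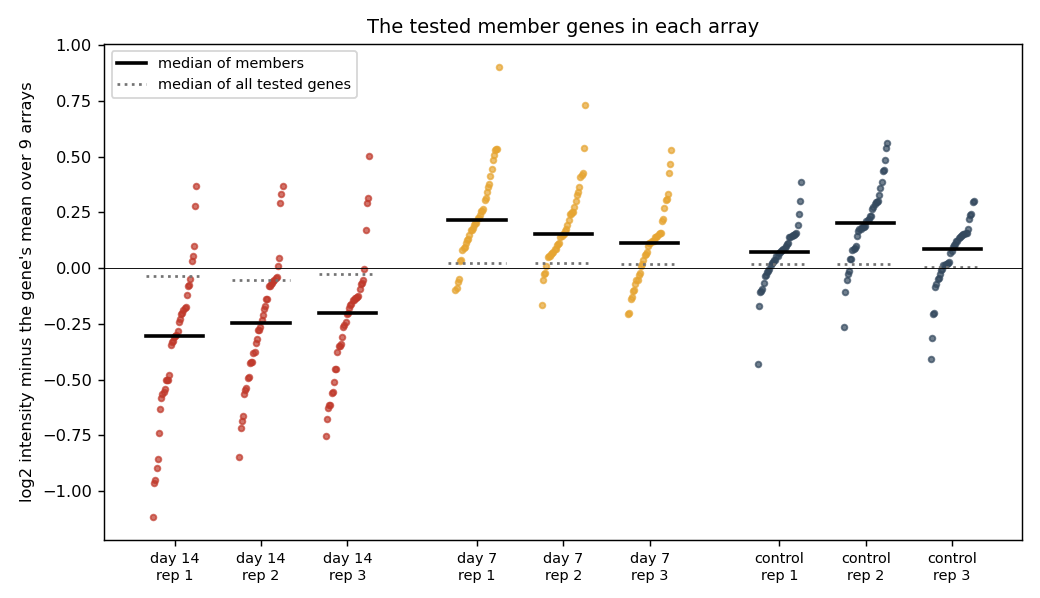
Log2 intensity of the 38 tested genes relative to each gene's mean over 9 arrays, points sorted within an array, with a bar for their median and a dotted line for the median of all tested genes. The median of the 38 genes lay at -0.31, -0.25 and -0.20 in the day 14 arrays, 0.21, 0.15 and 0.11 at day 7 and 0.07, 0.20 and 0.09 in control.

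The number of calls depended on how the arrays were scaled, and none of the 30 calls against control changed direction under either other scaling. With arrays set to the same 75th percentile, the median of all tested genes for day 14 against control was 0.06 in place of -0.06, with 31.2% of them called higher and 23.2% lower. Under that scaling the 38 genes had a median of -0.22, with 4 called higher and 21 lower. With quantile normalization the medians were -0.28 for the 38 genes and -0.001 for all genes, with 3 called higher and 24 lower of the 38, against 22.0% and 26.8% of all genes.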

How the data were processed

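Intensities of 9 Affymetrix Mouse Genome 430 2.0 arrays were used as the authors deposited them, 1 linear value per probe set and array. The labels' protocols and design text give cRNA amplification in 2 cycles and normalization in Affymetrix Microarray Analysis Software 5.0, and 51.64% of the 45037 probe sets hold equal values in at least 2 arrays, which a summary made array by array would rarely give, so the stated normalization is in doubt and other scalings were run. Of these probe sets 34945 had 1 gene symbol, 932 several and 9160 none, by the platform annotation. Groups were read from the sample labels.

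A floor was set at the 20th percentile of all values (5.81) before taking log2. Testing required a signal above the array's own 40th percentile (14.1 to 15.2) in at least 3 arrays. One linear model over all 9 arrays was fitted with limma 3.58.1 in R 4.3.3, without covariates and with two-sided moderated tests and an F-test over the groups, and calls used a Benjamini-Hochberg adjusted p below 0.05. The fit was tested on simulated data with independent noise and known shifts in a small share of genes. That simulation did not cover array scaling or calls in as many genes as here.

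Values of every array are given for Kpna2, Kpnb1, Xpo1, Cse1l and, per comparison, up to 8 called members per direction with the largest differences and no overlap, and otherwise at most 4 examples a role; genes outside the rule are named up to 4 per direction and comparison by size. Further values of members, and Gata2, Cd48 and Ran, were added after seeing the data. The members and lists were chosen with earlier results of these data known. Promoter windows came from RefSeq (GRCm38.p6); 30 of the 39 genes matched by symbol, and Cse1l, Kpna1, Kpna3, Kpna6, Nup210l, Nup43, Nup85, Xpo4 and Xpo7 did not.

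Alternatives were quantile normalization, a common 75th percentile, no floor with an offset of 32, no filter or a stricter one (60th percentile), averaged probe sets, a replicate block, only the compared groups, a trended robust prior, array weights and leaving out each array.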

Additional observations from a re-analysis of the deposited data

Results flagged for a closer look

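The change from control differed between the leukemic days for 33 of the 38 tested genes, against 51.0% of all tested genes, by the limma comparison of day 14 with day 7, which tests that difference itself because the control cancels. Positive values are higher at day 14. Among nucleoporin genes the log2 difference was -1.10 for Nup43, -1.25 for Nup37, -0.95 for Nup85, -0.82 for Nup133, -0.75 for Nup107 and -0.29 for Nup160 in the outer ring. It was -1.21 for Nup93, -1.08 for Nup155, -0.95 for Nup205 and -0.46 for Nup188 in the inner ring. In the channel it was -0.48 for Nup62, -0.32 for Nup98 and -0.17 for Nup54, and elsewhere in the pore -0.47 for Nup88, -0.25 for Nup210, -0.24 for Nup50 and 0.45 for Nup153.

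Among transport receptor genes the log2 difference was -1.63 for Kpna2, -0.36 for Kpna3, -0.19 for Kpna6, 0.31 for Kpna4 and 0.41 for Kpna1 for the importin alphas. It was -0.70 for Ipo11, -0.68 for Ipo9, -0.60 for Ipo5, -0.41 for Ipo13, -0.28 for Kpnb1 and -0.27 for Ipo7 for importin beta and its relatives, and -0.72 for Xpo1, -0.63 for Xpo5, -0.60 for Cse1l, -0.31 for Xpo4 and -0.22 for Xpo6 for the exportins. At a common 75th percentile the calls for Nup160 (-0.15) and Nup210 (-0.12) were lost, and with averaged probe sets Xpo4 was at -0.0128. Of these 33 differences 22 kept their call under every alternative run. The smallest in size, Nup54, lost its call in 10 alternatives, among them without control replicate 1 (-0.17), day 7 replicate 1 (-0.15), day 7 replicate 3 (-0.16) or any day 14 replicate (-0.18, -0.18 and -0.16 without replicates 1 to 3). Calls were also lost for Nup50 (-0.16 to -0.23) without day 7 replicate 1, day 7 replicate 2, day 14 replicate 1 or day 14 replicate 3, and for Kpna6 (-0.16 to -0.19) without replicate 1 or 2 of either day. Without 1 array Xpo6 lost its call at -0.18 to -0.21 (day 7 replicate 1, day 7 replicate 2 or day 14 replicate 2), Ipo7 at -0.25 (day 7 replicate 2) and Kpnb1 at -0.22 to -0.25 (day 7 replicate 1, day 7 replicate 2 or day 14 replicate 1).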

How the results depend on the processing

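Of the 30 calls for day 14 against control 21 were kept under every alternative, and of the 33 for day 14 against day 7 22 were. Under the common 75th percentile 14 of these 63 member calls were lost, with averaged probe sets 11, with quantile normalization 8 and without day 14 replicate 1 7, where fewer arrays were fitted. The values that reversed did so with averaged probe sets: Kpna4 at -0.17 against control and -0.0802 against day 7, Nup153 at -0.0507 and Nup50 at 0.0203 against control, and Tnpo1, which is no member, at -0.0525 against day 7. That setting left 1 member called higher in each day 14 comparison, and the common 75th percentile gave 5 higher against day 7. At day 7 the count of members called was 1, all higher, with quantile normalization, with no floor and an offset of 32, with the stricter filter, with the mean of probe sets and with the trended robust prior, 7 with array weights (where 17.2% of all genes were called), and 0 to 3 with single arrays left out, where 3 came without control replicate 2 (4.39% of all genes). The causes were not tested. With single arrays left out the count was 27 to 31 for day 14 against control and 28 to 33 for day 14 against day 7. Of 51 member differences not called, 23 changed sign in some alternative, at sizes up to 0.15 in the reported fit.

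The replicate numbers gave no sign of pairing: correlations of same-numbered arrays ran from -0.193 to 0.12 over 9 pairs. Only 1 of 9 arrays correlated best with its own number. With 3 arrays a group this cannot show that the samples were unpaired. With the replicate block 0 members were called at day 7, 3 higher and 28 lower at day 14 against control, and 3 higher and 28 lower at day 14 against day 7.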
